A study of Homo sapiens with 24 samples.

Results

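Histone acetyltransferases carry the acetyl group of acetyl-CoA to lysines of histone tails and of other proteins. Genes of this class were chosen by symbol from the entries of the deposited expression values: EP300, CREBBP, KAT2A, KAT2B, KAT5, MYST1 (now KAT8), MYST2 (now KAT7), MYST3 (now KAT6A), MYST4 (now KAT6B) and HAT1. Of these 10 genes, 9 were found, each as 1 entry among the 18172 genes tested, and MYST4 was not analysed here. Transcripts were measured on 24 Illumina arrays. The cells were HCT116, an established line from a human colorectal carcinoma, kept in DMEM with glucose. Cells transfected with siACL, which lowers ATP citrate lyase, were set against control cells transfected with siMock. Both arms were treated for 3 days and held an untreated group and groups with butyrate at 0.5, 2 and 5 mM, with 3 arrays in each of the 8 groups. The labels call the 3 arrays of a group biological replicates, so p-values measure the spread between these samples, and the sources used here name no culture dates, slides or siRNA sequences. The comparisons ask how the transcripts of the enzymes that use acetyl-CoA moved with the dose of butyrate and with ATP citrate lyase lowered.

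Butyrate, a short-chain fatty acid of the gut, blocks many, but not all, class I and II histone deacetylases, enzymes that remove what acetyltransferases add. ATP citrate lyase makes acetyl-CoA from citrate outside the mitochondria, and that pool feeds nuclear histone acetylation. EP300 and CREBBP are paired coactivators with broad substrates, KAT2A and KAT2B are the alternative catalytic subunits of the SAGA and ATAC complexes, and KAT5 and the MYST genes belong to 1 family that works in complexes of its own. HAT1 acts in the cytoplasm and nucleus on newly made histone H4 before it is placed in chromatin.

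Every value below is a normal score, which gives the place of a gene among all genes of the same array, with 0 at the middle of the array. A difference of scores is therefore a move in rank and has no fold change. Because the arrays are of bulk cells, a move in the transcripts of each cell cannot be told apart from a change in which cells were present. Arrays of 1 group correlated at r = 0.928 to 0.955 over genes. ACLY, the target of siACL, had a mean score of 1.18 ± 0.02 in untreated siACL cells against 1.52 ± 0.02 in untreated siMock cells (SD, n = 3 each). At 5 mM it was 0.683 ± 0.017 in siACL against 1.31 ± 0.03 in siMock, so the difference between arms was -0.34 without butyrate and -0.63 at 5 mM. The siACL step of ACLY from 2 to 5 mM was below the siMock step by a difference of -0.21 ± 0.03 (SE, adjusted p = 0.000474). Of 7 epithelial markers measured, 6 lay above the middle of the array by their medians, with EPCAM, KRT8 and KRT19 above the 90 percentile, KRT18 at 60.0, and GPA33 below the middle at 36.1. The fibroblast collagen genes COL1A1 and COL3A1 lay at the 67.6 and 12.6 percentile, the endothelial marker PECAM1 at 11.4, and the hepatocyte markers ALB and APOA1 at 31.2 and 17.0.

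The group means of a member spanned from 0.169 (KAT2A) to 0.472 (MYST1) score units over the 8 groups. The median gene of the array spanned 0.407, and MYST1 and EP300 (0.415) were the members above it. Set against the pooled SD within groups, the span was 8.98 times the SD for MYST1, 8.58 times for CREBBP, 5.18 times for HAT1 and 4.14 times for KAT2A. It was 3.84 times for KAT5, 2.92 times for EP300, 2.79 times for KAT2B, 2.27 times for MYST3 and 2.12 times for MYST2. EP300 lay between the 26.2 and 53.3 percentile over the 24 arrays, CREBBP between 59.9 and 74.2, KAT2A between 84.8 and 89.9, MYST1 between 55.0 and 75.5 and HAT1 between 84.0 and 89.6.

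**Figure D1:**
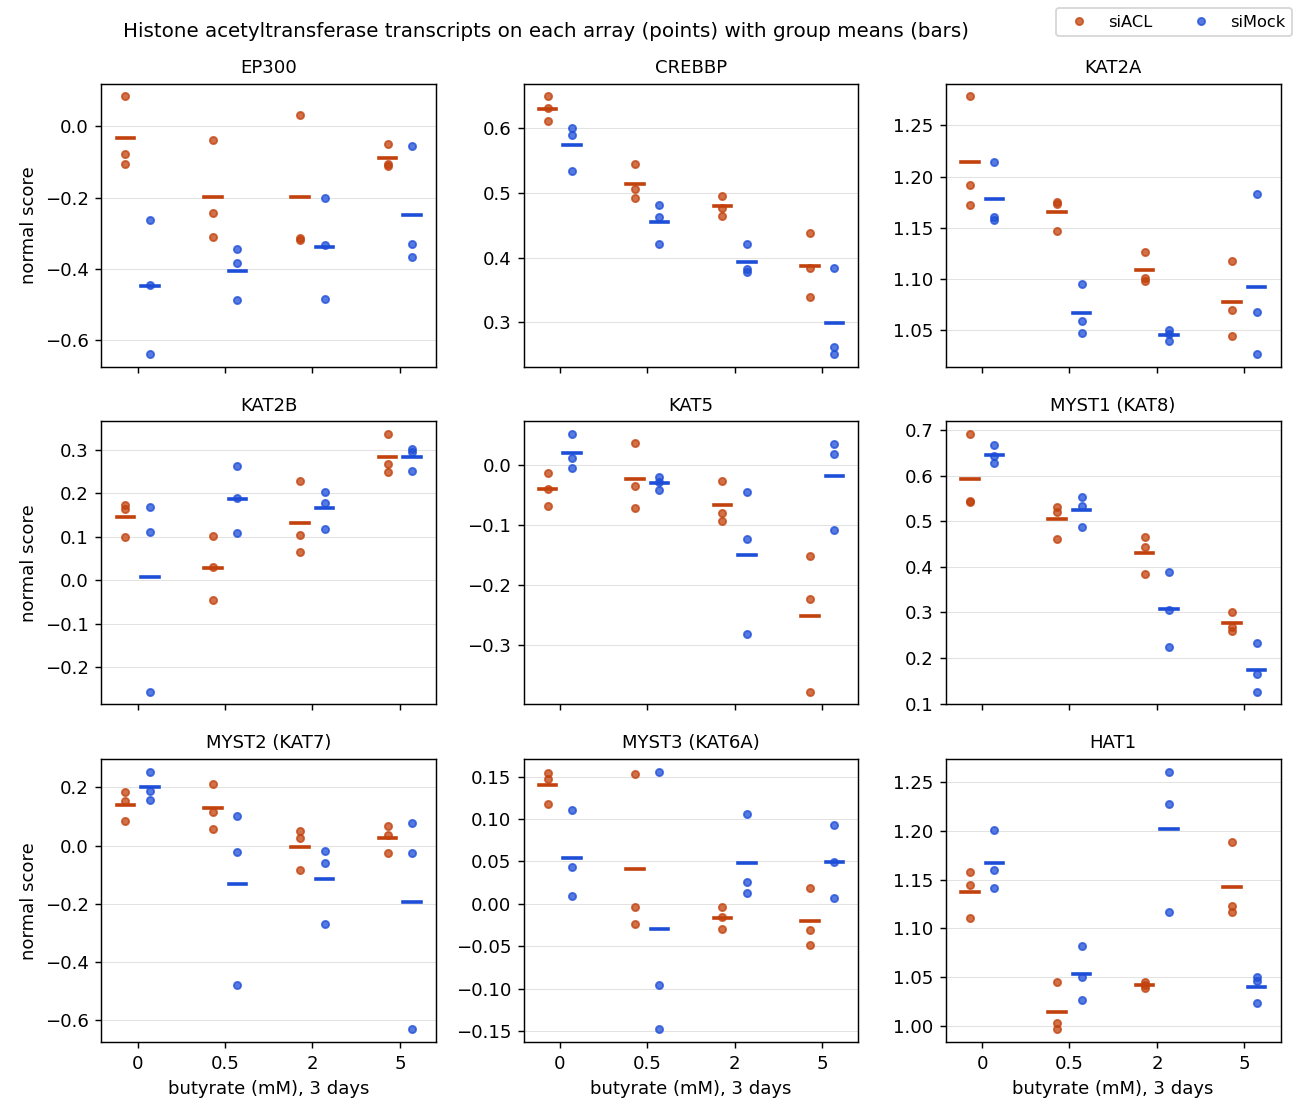
Normal score (vertical axis, a scale of its own in each panel) of each histone acetyltransferase gene on every array (points) with the group mean (bar), by butyrate dose in mM over 3 days, for siACL (orange, left of each pair) and siMock (blue). CREBBP and MYST1 step down with dose in both arms, while HAT1 peaks at 2 mM in siMock and comes back up at 5 mM in siACL.

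The words rose and fell are used for genes whose adjusted p from limma, taken over all 18172 genes, was under 0.05. In siACL, 2 of the 9 acetyltransferase genes fell at 0.5 mM, 4 at 2 mM and 5 at 5 mM, and limma called none higher. At an unadjusted p under 0.05 there were 2, 5 and 5 members at these doses, all lower. In siMock there were 6, 5 and 6, all lower except KAT2B, which was higher at 0.5 and 5 mM. The share of all genes at an unadjusted threshold was not counted, and each share of all genes in this text is at the adjusted one. Of all genes, 2.45% fell and 4.79% rose in siACL at 0.5 mM, 12.8% fell and 13.7% rose at 2 mM, and 22.6% fell and 22.7% rose at 5 mM. In siMock, 3 of the 9 fell at 0.5 mM, 4 at 2 mM and 5 at 5 mM, while KAT2B rose at 5 mM. The shares of all genes that fell in siMock were 10.1%, 19.3% and 25.2% at 0.5, 2 and 5 mM, and 12%, 18.7% and 25.6% rose. The median difference of the 9 genes was -0.10, -0.14 and -0.14 at 0.5, 2 and 5 mM in siACL, against -0.0032, -0.013 and -0.016 for all genes. In siMock it was -0.11, -0.13 and -0.085, against -0.0076, -0.010 and -0.013. The 3 comparisons of an arm share its untreated arrays.

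**Figure D2:**
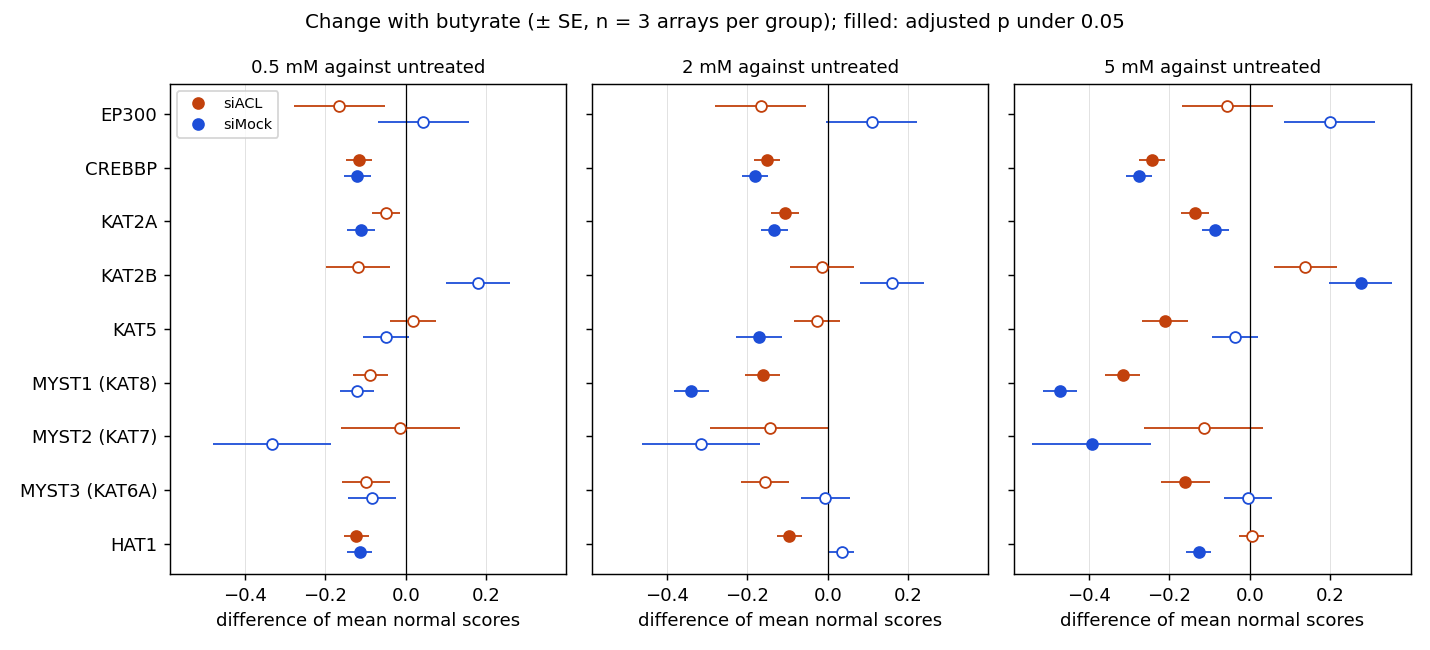
Difference of mean normal scores (horizontal axis, ± SE, n = 3 arrays per group) of each acetyltransferase gene at 0.5, 2 and 5 mM butyrate against untreated cells of the same arm, for siACL (orange, upper of each pair) and siMock (blue, lower). Filled points passed an adjusted p under 0.05. CREBBP is filled in all 6 comparisons, and EP300 in none.

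CREBBP, which encodes the CREB-binding protein, fell at every dose in both arms, and EP300, which encodes its paralogue p300, passed the test with butyrate in neither. The 250 bases before the annotated transcript start of each are shown because, in this related pair, CREBBP was called in every comparison of a butyrate dose with untreated cells and EP300 in none. This is a contrast of calls and not always of size. EP300 varied more between arrays of a group, and its siACL differences at 0.5 and 2 mM were no smaller than those of CREBBP. Both come from RefSeq's GRCh38.p14 annotation, CREBBP at chr16:3880714-3880963 on the minus strand and EP300 at chr22:41092342-41092591 on the plus strand. Capitals mark the GC box (GGGCGG, read on either strand) and the CCAAT box.
CREBBP: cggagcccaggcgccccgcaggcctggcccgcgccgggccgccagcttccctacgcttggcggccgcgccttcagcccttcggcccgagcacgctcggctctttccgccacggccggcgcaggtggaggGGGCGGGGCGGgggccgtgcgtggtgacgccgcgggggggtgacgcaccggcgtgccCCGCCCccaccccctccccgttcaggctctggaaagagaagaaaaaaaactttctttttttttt
EP300: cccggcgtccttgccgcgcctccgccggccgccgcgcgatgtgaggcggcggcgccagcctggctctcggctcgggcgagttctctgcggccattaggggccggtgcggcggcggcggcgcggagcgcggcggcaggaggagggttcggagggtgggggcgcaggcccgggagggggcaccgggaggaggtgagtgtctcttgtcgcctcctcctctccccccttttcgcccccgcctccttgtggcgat
Motifs were searched on both strands. The CREBBP stretch held 3 GC boxes, 116, 111 and 59 bases before the start, of which the first pair overlap, and the EP300 stretch held none. The GC box is in 42.6% of the 34788 different promoter stretches searched. The short word TGACG, which also lies within the cAMP response element TGACGTCA, stood in the CREBBP stretch 93 and 77 bases before the start. The short word is in 21.2% of promoters, and the full element, which neither stretch held, is in 1.64%. The TATA box TATAAA (10.8% of promoters), the E-box CACGTG (6.31%), the ETS word CCGGAAG (8.50%) and the core motif of NRF1 (1.02%) were in neither. A match is a match of letters in this window. The GC content was 72.4% for CREBBP and 76.8% for EP300, against a median of 58% over all promoters.

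In siACL, CREBBP scored 0.65, 0.61 and 0.63 in untreated arrays, 0.51, 0.54 and 0.49 at 0.5 mM, 0.48, 0.50 and 0.46 at 2 mM, and 0.44, 0.34 and 0.38 at 5 mM. In siMock it scored 0.59, 0.60 and 0.53 in untreated arrays, 0.48, 0.46 and 0.42 at 0.5 mM, 0.42, 0.38 and 0.38 at 2 mM, and 0.25, 0.38 and 0.26 at 5 mM. All treated arrays of an arm lay below all untreated arrays of that arm. In siACL the differences from untreated cells were -0.12 ± 0.03 at 0.5 mM (SE, adjusted p = 0.0386), -0.15 ± 0.03 at 2 mM (adjusted p = 0.00194) and -0.24 ± 0.03 at 5 mM (adjusted p = 6.96e-06). In siMock they were -0.12 ± 0.03 (adjusted p = 0.013), -0.18 ± 0.03 (adjusted p = 0.000235) and -0.28 ± 0.03 (adjusted p = 1.2e-06). Falls of nearly the same size were thus measured in both arms, and the change in siACL minus that in siMock was 0.033 at 5 mM, with a 95% interval of -0.065 to 0.130. The mean at 5 mM was the 65.1 percentile in siACL and the 61.7 percentile in siMock. The call at 0.5 mM in siACL was lost without any 1 of the 6 arrays (adjusted p up to 0.139). In siMock at 0.5 mM it was lost without untreated replicate 2 or 0.5 mM replicate 3 (adjusted p up to 0.0631), while the calls at 2 and 5 mM held in both arms without each array in turn.

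EP300 varied more between arrays of 1 group than CREBBP did, with a pooled SD of 0.142 against 0.039. Its scores in siACL were -0.08, 0.08 and -0.11 in untreated arrays, -0.31, -0.04 and -0.24 at 0.5 mM, 0.03, -0.31 and -0.32 at 2 mM, and -0.05, -0.11 and -0.11 at 5 mM. In siMock they were -0.44, -0.26 and -0.64 in untreated arrays, -0.34, -0.49 and -0.38 at 0.5 mM, -0.20, -0.33 and -0.48 at 2 mM, and -0.37, -0.33 and -0.06 at 5 mM. In siACL the difference from untreated cells was -0.16 ± 0.11 at 0.5 mM (SE, adjusted p = 0.516) and -0.17 ± 0.11 at 2 mM (adjusted p = 0.327). These were no smaller than the called CREBBP differences of -0.12 and -0.15. In siMock they were 0.043 ± 0.113 and 0.11 ± 0.11 (adjusted p = 0.846 and 0.503). At 5 mM the difference from untreated cells was -0.056 in siACL (95% interval -0.29 to 0.18, adjusted p = 0.741) and 0.20 in siMock (95% interval -0.040 to 0.44, adjusted p = 0.161). The siACL interval takes in a fall as large as that of CREBBP, and the siMock interval does not. Neighbours in the order of the 8 group means all overlapped, with untreated siACL highest and untreated siMock lowest.

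Among 15 measured partners of p300 and CBP (17 were listed), 4 rose and 3 fell in siACL at 5 mM, and 7 rose and 3 fell in siMock. Of all genes, 22.7% rose and 22.6% fell in siACL at this dose, and 25.6% rose and 25.2% fell in siMock, so the siACL counts were near those of all genes. The median difference was 0.068 in siACL and 0.13 in siMock, above the medians of all genes in the same comparisons. The CITED genes encode small proteins without a DNA-binding domain that dock on p300 and CBP, and all 3 measured ones rose. CITED2 rose by 0.54 ± 0.03 in siACL (adjusted p = 8.07e-11) and by 0.66 ± 0.03 in siMock (adjusted p = 3.25e-12). CITED4 rose by 0.58 ± 0.06 and 0.55 ± 0.06, and CITED1 by 0.61 ± 0.21 and 1.08 ± 0.21, in siACL and in siMock. The CITED1 call in siACL was lost without untreated replicate 3, 5 mM replicate 1 or 5 mM replicate 2 (adjusted p up to 0.14, with a difference of 0.39 without untreated replicate 3), and with only the arrays compared.

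KAT2A (GCN5) and KAT2B (PCAF) are paralogues that take the same seat in SAGA and ATAC. KAT2A fell at 2 and 5 mM in siACL and at each dose in siMock, while KAT2B rose in siMock at 5 mM. The 250 bases before their starts also differ in GC boxes and TGACG words, and are shown for that contrast, again from GRCh38.p14. KAT2A lies at chr17:42121368-42121617 on the minus strand and KAT2B at chr3:20040196-20040445 on the plus strand, with GC boxes in capitals.
KAT2A: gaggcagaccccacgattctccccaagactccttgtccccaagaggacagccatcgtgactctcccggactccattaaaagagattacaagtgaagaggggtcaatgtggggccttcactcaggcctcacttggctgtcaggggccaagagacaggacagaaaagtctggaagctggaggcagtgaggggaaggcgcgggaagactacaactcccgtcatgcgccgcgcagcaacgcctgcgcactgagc
KAT2B: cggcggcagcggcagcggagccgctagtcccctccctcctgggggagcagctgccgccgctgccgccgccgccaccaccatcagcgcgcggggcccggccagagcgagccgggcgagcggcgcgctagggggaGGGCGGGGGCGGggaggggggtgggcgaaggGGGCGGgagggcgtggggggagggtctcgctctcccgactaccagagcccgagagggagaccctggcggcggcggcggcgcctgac
The KAT2B stretch held 3 GC boxes, 112, 106 and 81 bases before the start, the first pair overlapping, and had a GC content of 80.8%. The KAT2A stretch held no GC box and 1 TGACG word, with a GC content of 58.8%. GC boxes were thus in CREBBP, which fell, in KAT2B, which rose in siMock, and also in HAT1. TGACG words were in CREBBP and KAT2A, which both fell, and also in KAT5, MYST2 and HAT1. KAT5, MYST2 and HAT1 were each called lower at some doses and not at others. A link of these motifs with the changes was not tested.

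KAT2A scored 1.17, 1.28 and 1.19 in untreated siACL arrays, 1.17, 1.15 and 1.18 at 0.5 mM, 1.10, 1.10 and 1.13 at 2 mM, and 1.07, 1.04 and 1.12 at 5 mM. In siMock it scored 1.21, 1.16 and 1.16 in untreated arrays, 1.05, 1.10 and 1.06 at 0.5 mM, 1.05, 1.05 and 1.04 at 2 mM, and 1.03, 1.18 and 1.07 at 5 mM. The 5 mM and untreated arrays overlapped in siMock and not in siACL. The difference from untreated cells in siACL was -0.11 ± 0.03 at 2 mM (adjusted p = 0.0299) and -0.14 ± 0.03 at 5 mM (adjusted p = 0.00305), and -0.049 ± 0.034 at 0.5 mM (adjusted p = 0.535). In siMock it was -0.11 ± 0.03 at 0.5 mM (adjusted p = 0.0268), -0.13 ± 0.03 at 2 mM (adjusted p = 0.00492) and -0.085 ± 0.034 at 5 mM (adjusted p = 0.047). The siMock call at 5 mM rested on few arrays: it was lost without any untreated array or without 5 mM replicate 1 or 3 (adjusted p up to 0.243, with a difference of -0.053 without 5 mM replicate 1), and with the replicate number as a block. The call at 0.5 mM in siMock was lost without untreated replicate 1 or 0.5 mM replicates 1 or 3 (adjusted p up to 0.111), and that at 2 mM in siACL without untreated replicate 2 or 2 mM replicates 1 or 2 (adjusted p up to 0.166).

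KAT2B had nearly the same mean in both arms at 5 mM, with scores of 0.27, 0.25 and 0.34 in siACL at 5 mM and 0.25, 0.30 and 0.30 in siMock at 5 mM. Untreated arrays scored 0.16, 0.10 and 0.17 in siACL and 0.17, 0.11 and -0.26 in siMock. The arrays between scored 0.03, 0.10 and -0.05 at 0.5 mM and 0.23, 0.10 and 0.06 at 2 mM in siACL, and 0.26, 0.11 and 0.19 at 0.5 mM and 0.20, 0.12 and 0.18 at 2 mM in siMock. The 5 mM arrays lay above the untreated arrays in each arm, and 1 untreated siMock array lay far below the rest. At 5 mM the difference in siACL was 0.14 ± 0.08 (adjusted p = 0.178), and KAT2B rose by 0.28 ± 0.08 in siMock (adjusted p = 0.00707). Without that low array, untreated replicate 3, the siMock difference was 0.14, and the call held in each fit that left out 1 array (adjusted p up to 0.0372) but not with only the arrays compared (adjusted p = 0.135). That same fit made the siACL call instead (adjusted p = 0.033), so which arm was called depended on the arrays in the fit. The siACL change minus the siMock change was -0.14 at 5 mM, with a 95% interval of -0.37 to 0.099.

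Of 24 listed subunits of SAGA and ATAC, 21 were measured. In siACL at 5 mM, 10 fell and 2 rose, with a median difference of -0.13, and in siMock 9 fell and 4 rose, with a median of -0.11. The shares of all genes were 22.6% lower and 22.7% higher in siACL, and 25.2% lower and 25.6% higher in siMock. TAF6L, a histone-fold subunit of SAGA, fell by 0.27 ± 0.05 in siACL and by 0.27 ± 0.05 in siMock, and MBIP, an ATAC subunit, fell by 0.23 ± 0.02 and 0.26 ± 0.02. ZZZ3, an ATAC subunit that binds the histone H3 tail, fell by 0.38 ± 0.03 in siACL, and TADA2A, the ATAC adaptor, fell by 0.39 ± 0.09 there. In siMock, TAF5L fell by 0.54 ± 0.18 and TADA2B, the SAGA adaptor, rose by 0.29 ± 0.09. Each of these siMock calls was lost with only the arrays compared and without untreated replicate 1, that of TAF5L also without 5 mM replicates 1 or 3 (adjusted p up to 0.0798), and without untreated replicate 1 the TADA2B difference was 0.18.

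MYST1 (KAT8, also MOF), the catalytic subunit of the MSL and NSL complexes that acetylates histone H4, had the largest span of group means of the class. It fell at 2 and 5 mM in both arms. Its scores were 0.69, 0.54 and 0.54 in untreated siACL arrays, 0.52, 0.46 and 0.53 at 0.5 mM, 0.38, 0.44 and 0.47 at 2 mM, and 0.27, 0.26 and 0.30 at 5 mM. In siMock they were 0.64, 0.63 and 0.67 in untreated arrays, 0.55, 0.49 and 0.53 at 0.5 mM, 0.39, 0.22 and 0.31 at 2 mM, and 0.13, 0.23 and 0.16 at 5 mM. No treated array of an arm reached an untreated one, and the group means stepped down with each dose in both arms. The difference from untreated cells in siACL was -0.088 ± 0.043 at 0.5 mM (adjusted p = 0.288), -0.16 ± 0.04 at 2 mM (adjusted p = 0.00909) and -0.32 ± 0.04 at 5 mM (adjusted p = 8.23e-06). In siMock it was -0.12 ± 0.04 at 0.5 mM (adjusted p = 0.054), -0.34 ± 0.04 at 2 mM (adjusted p = 5.72e-06) and -0.47 ± 0.04 at 5 mM (adjusted p = 4.4e-08). The mean at 5 mM was the 60.9 percentile in siACL, against the 72.3 percentile in untreated siACL, and the 56.9 percentile in siMock, against the 74.1 percentile in untreated siMock. The siACL call at 2 mM was lost without untreated replicate 1 (adjusted p = 0.0657), and with only the arrays compared.

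The siACL change of MYST1 was smaller than the siMock change by 0.18 ± 0.06 at 2 mM (adjusted p = 0.101) and by 0.16 ± 0.06 at 5 mM (adjusted p = 0.138), neither of which passed the test. The interval of the difference at 5 mM was 0.027 to 0.28. Leaving out untreated siACL replicate 1, the highest of its group, brought both below the threshold (adjusted p = 0.0284 and 0.0349), as did leaving out siMock 2 mM replicate 1 at 2 mM. No promoter stretch was searched for MYST1 (KAT8) or for MYST3 (KAT6A).

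Of 11 listed genes of MSL and NSL subunits, measured by 12 entries, 8 fell and 1 rose in siACL at 5 mM, with a median difference of -0.15, and 7 fell and 1 rose in siMock, with a median of -0.14. Of all genes, 22.6% fell in siACL and 25.2% in siMock. MSL1, the scaffold that holds MOF in the MSL complex, moved most of the named genes in this list. Its mean score fell to -1.75 at 5 mM in siACL, against 0.036 in untreated siACL, and to -2.32 at 5 mM in siMock, against -0.26 in untreated siMock. The differences were -1.78 ± 0.23 (adjusted p = 3.94e-06) and -2.06 ± 0.23 (adjusted p = 5.14e-07). PHF20, an NSL subunit, fell by 0.25 ± 0.05 in siACL and by 0.32 ± 0.05 in siMock. In siACL the NSL genes C12ORF41 (KANSL2) and KIAA1267 (KANSL1) fell by 0.30 ± 0.03 and 0.22 ± 0.02, and in siMock MCRS1 fell by 0.31 ± 0.02. MSL3L1 rose in siMock, by 0.38 ± 0.05.

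The other MYST genes moved less clearly. MYST2 (KAT7, also HBO1), which acetylates histone H3 and H4 at replication origins and genes, scored 0.09, 0.15 and 0.18 in untreated siACL arrays, 0.06, 0.21 and 0.12 at 0.5 mM, -0.08, 0.05 and 0.03 at 2 mM, and -0.03, 0.04 and 0.07 at 5 mM. In siMock its scores were 0.19, 0.16 and 0.25 in untreated arrays, -0.02, -0.48 and 0.10 at 0.5 mM, -0.02, -0.06 and -0.27 at 2 mM, and -0.03, 0.08 and -0.63 at 5 mM. In siMock 1 array at 0.5 mM and 1 at 5 mM lay far below the others of their group. At 5 mM the difference in siACL was -0.11 ± 0.15 (adjusted p = 0.578), and MYST2 fell in siMock (-0.39 ± 0.15, adjusted p = 0.0334). Without 5 mM replicate 3 the siMock difference was -0.17 and the call was lost (adjusted p = 0.252), as it was without any 1 untreated siMock array. MYST3 (KAT6A, also MOZ), a histone H3 acetyltransferase of blood stem cells and leukaemia fusions, scored 0.15, 0.15 and 0.12 in untreated siACL arrays, 0.15, -0.02 and -0.0035 at 0.5 mM, -0.02, -0.0031 and -0.03 at 2 mM, and -0.03, -0.05 and 0.02 at 5 mM. In siMock it scored 0.0089, 0.04 and 0.11 in untreated arrays, -0.15, 0.16 and -0.10 at 0.5 mM, 0.11, 0.01 and 0.03 at 2 mM, and 0.09, 0.0068 and 0.05 at 5 mM. The 5 mM and untreated arrays were apart in siACL and overlapped in siMock. MYST3 fell in siACL at 5 mM by 0.16 ± 0.06 (adjusted p = 0.0379), while the siMock difference was -0.0050 ± 0.060 (adjusted p = 0.956). The siACL call was lost with the replicate number as a block (adjusted p = 0.0525) and without 5 of the 6 arrays, all but 5 mM replicate 3 (adjusted p up to 0.106).

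Partners of MYST2 and MYST3 were read at 5 mM. Of 9 listed genes of the MOZ, MORF and HBO1 complexes, measured by 10 entries, 8 entries fell and none rose in siACL at 5 mM, and 7 fell and 1 rose in siMock, with median differences of -0.18 and -0.20. The gene MEAF6 is counted by both of its entries, named C1ORF149 and MEAF6, and each fell in siACL. The call of the entry named MEAF6 (adjusted p = 0.0472) was lost without any 1 array. The siACL count was 5 to 7 when 1 array was left out, and 5 without 5 mM replicate 2. PHF15 (JADE2), which gives HBO1 its choice of histone, fell by 1.01 ± 0.11 in siACL (adjusted p = 9.44e-07) and by 1.10 ± 0.11 in siMock (adjusted p = 2.19e-07). ING5, a reader of methylated histone H3, fell by 0.70 ± 0.14 and 0.50 ± 0.14, and BRD1, the scaffold also called BRPF2, by 0.28 ± 0.04 and 0.25 ± 0.04. Among all genes 22.6% fell in siACL and 25.2% in siMock at this dose.

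KAT5 (TIP60), the catalytic subunit of the NuA4-type complex of DNA repair and transcription, was lowest at a different dose in each arm. Its scores were -0.07, -0.01 and -0.04 in untreated siACL arrays, -0.07, 0.04 and -0.03 at 0.5 mM, -0.09, -0.08 and -0.03 at 2 mM, and -0.38, -0.15 and -0.22 at 5 mM. In siMock they were 0.01, 0.05 and -0.0045 in untreated arrays, -0.02, -0.04 and -0.03 at 0.5 mM, -0.28, -0.12 and -0.05 at 2 mM, and -0.11, 0.02 and 0.04 at 5 mM. At 5 mM all siACL arrays lay below all siMock arrays. KAT5 fell at 5 mM in siACL (-0.21 ± 0.06, adjusted p = 0.00522) and at 2 mM in siMock (-0.17 ± 0.06, adjusted p = 0.0253). The other differences from untreated cells were -0.027 at 2 mM in siACL and -0.038 at 5 mM in siMock (adjusted p = 0.8 and 0.624). At 0.5 mM they were 0.017 in siACL and -0.049 in siMock (adjusted p = 0.942 and 0.616), and in siMock the arrays did not overlap the untreated ones. The siACL call held without each array in turn, and the siMock call was lost without untreated replicates 1 or 2 or 2 mM replicate 1 (adjusted p up to 0.163, with a difference of -0.10 without 2 mM replicate 1).

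Of 17 listed TIP60 partners, 7 of 16 measured entries fell and 2 rose in siACL at 5 mM, and 8 fell and 3 rose in siMock, with median differences of -0.045 and -0.099. Of all genes, 22.6% fell and 22.7% rose in siACL, and 25.2% fell and 25.6% rose in siMock. The 9 siACL calls became 5 to 7 when 1 array was left out, with 5 without untreated replicate 2 or 5 mM replicate 1. C20ORF20 (MRGBP) fell by 0.23 ± 0.02 in siACL and by 0.23 ± 0.02 in siMock. MEAF6, a small subunit shared with the MYST2 and MYST3 complexes, was measured by 2 entries. The one named C1ORF149 fell by 0.27 ± 0.05 in siACL and by 0.28 ± 0.05 in siMock, and the one named MEAF6 fell by 0.16 ± 0.06 in siACL (adjusted p = 0.0472), a call lost without any 1 of the 6 arrays (adjusted p up to 0.163). RUVBL1, an ATPase of the complex, fell by 0.21 ± 0.03 in siMock, and DMAP1 rose by 0.20 ± 0.03 in siACL. MBTD1, a reader subunit, rose by 0.22 ± 0.07 in siMock, a call lost without untreated replicate 1 or 5 mM replicate 1 (adjusted p up to 0.112, with a difference of 0.14 without 5 mM replicate 1), and with only the arrays compared.

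HAT1, the acetyltransferase of new histone H4, did not move one way with dose, and its low doses differed between the arms. Its 250 bases before the start (GRCh38.p14, chr2:171922211-171922460, plus strand) are shown because HAT1 had the lowest p of the members in the test of steps between arms, with the CCAAT box (here as ATTGG) and the GC box in capitals.
HAT1: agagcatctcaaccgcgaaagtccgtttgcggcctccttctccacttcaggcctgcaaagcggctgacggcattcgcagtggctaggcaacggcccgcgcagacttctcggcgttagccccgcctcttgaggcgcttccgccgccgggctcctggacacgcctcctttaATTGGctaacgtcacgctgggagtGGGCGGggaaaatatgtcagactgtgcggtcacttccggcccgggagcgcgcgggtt
The CCAAT box stood 77 and the GC box 52 bases before the start. A CCAAT box is in 32.0% of all promoter stretches, and of the 7 members with a stretch searched, HAT1 was the one that held it. The ETS word CCGGAAG, present in 8.50% of promoters, was found 19 bases before the start, and TGACG 182 and 68 bases before it.

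HAT1 scored 1.16, 1.14 and 1.11 in untreated siACL arrays, 1.00, 1.04 and 1.00 at 0.5 mM, 1.04, 1.04 and 1.04 at 2 mM, and 1.19, 1.12 and 1.12 at 5 mM. In siMock it scored 1.20, 1.14 and 1.16 in untreated arrays, 1.03, 1.05 and 1.08 at 0.5 mM, 1.23, 1.12 and 1.26 at 2 mM, and 1.02, 1.05 and 1.05 at 5 mM. The low groups were thus 0.5 and 2 mM in siACL and 0.5 and 5 mM in siMock, and no array of these 4 groups reached the untreated arrays of its arm. The differences from untreated cells in siACL were -0.12 ± 0.03 at 0.5 mM (adjusted p = 0.0204), -0.096 ± 0.031 at 2 mM (adjusted p = 0.0282) and 0.0049 ± 0.031 at 5 mM (adjusted p = 0.921). In siMock they were -0.11 ± 0.03 at 0.5 mM (adjusted p = 0.012), 0.034 ± 0.031 at 2 mM (adjusted p = 0.435) and -0.13 ± 0.03 at 5 mM (adjusted p = 0.002). The siMock call at 5 mM held without each array in turn. Those at 0.5 mM were lost in siACL without untreated replicates 1 or 2 or 0.5 mM replicates 1 or 3 (adjusted p up to 0.0834), and in siMock without untreated or 0.5 mM replicate 1 (adjusted p up to 0.0583). That at 2 mM in siACL was lost without 5 of the 6 arrays, all but untreated replicate 3 (adjusted p up to 0.0993).

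The next question was what each step up in dose did. From 0.5 to 2 mM, no member passed the test in siACL (13.8% of all genes did, and no member had an unadjusted p under 0.05). In siMock, where 21.6% of all genes passed, HAT1 and MYST1 did: HAT1 rose by 0.15 ± 0.03 (adjusted p = 0.00204) and MYST1 fell by 0.22 ± 0.04 (adjusted p = 0.00136). Between 2 and 5 mM, 4 of 9 members passed in siACL, against 28.5% of all genes: HAT1 rose by 0.10 ± 0.03 (adjusted p = 0.0203), and KAT5 (-0.19 ± 0.06), MYST1 (-0.15 ± 0.04) and CREBBP (-0.092 ± 0.033) fell. In siMock 3 passed, against 29.2% of all genes: HAT1 fell by 0.16 ± 0.03 (adjusted p = 0.000677), MYST1 by 0.13 ± 0.04 (adjusted p = 0.028) and CREBBP by 0.095 ± 0.033 (adjusted p = 0.0372). CREBBP and MYST1 thus went down in both arms, and HAT1 went opposite ways. The siMock steps of MYST1 and CREBBP from 2 to 5 mM were lost with array weights and without 4 and 5 of the 6 arrays (adjusted p up to 0.153 and 0.163), and the siACL step of CREBBP without 5 of the 6 (adjusted p up to 0.191). The siACL step of HAT1 was lost without 2 mM replicate 2 or 5 mM replicate 1 (adjusted p up to 0.106), and that of KAT5 without 2 mM replicate 3 or 5 mM replicate 1 (adjusted p up to 0.132, with a difference of -0.12 without 5 mM replicate 1).

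Whether these steps differed between arms was tested directly, a comparison added after the values were seen. For the step of 5 against 2 mM, 6.5% of all genes differed, and so did HAT1 and KAT5. The siACL step minus the siMock step was 0.26 ± 0.04 for HAT1 (95% interval 0.17 to 0.36, adjusted p = 0.0013) and -0.32 ± 0.08 for KAT5 (95% interval -0.49 to -0.15, adjusted p = 0.0249). The HAT1 value held without each of the 12 arrays in turn (0.23 to 0.31, adjusted p up to 0.00469). The KAT5 call was lost without 5 of the 12, namely siACL 2 mM replicate 3, siACL 5 mM replicate 1, siMock 2 mM replicate 1 and siMock 5 mM replicates 2 and 3 (adjusted p up to 0.0628), and with only the arrays compared (adjusted p = 0.154). For the step of 2 against 0.5 mM no member was called by limma, against 4.43% of all genes. At an unadjusted p under 0.05 there were 2 members, and the share of all genes at that threshold was not counted.

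HAT1 works with chaperones that carry new histones, and the same comparisons were made for these. Of 7 listed and measured (RBBP4, RBBP7, NASP, ASF1A, ASF1B, CHAF1A and CHAF1B), 2 rose and 2 fell in siACL at 5 mM, with a median difference of -0.063. The 4 siACL calls became 2 to 6 when 1 array was left out, with 2 without 5 mM replicate 1. In siMock 1 rose and 5 fell, with a median of -0.26. Among all genes 22.6% fell in siACL and 25.2% in siMock. The siACL step from 2 to 5 mM exceeded the siMock step for 3 of the 7 (ASF1B, NASP and CHAF1B), named after their values were seen, against 3.76% of all genes. For ASF1B, which hands H3 and H4 to assembly factors, this difference was 0.40 ± 0.04 (adjusted p = 3.06e-05), for NASP, which stores H3 and H4, 0.33 ± 0.04 (adjusted p = 4.39e-05), and for CHAF1B, a subunit of the replication-coupled assembly factor, 0.21 ± 0.04 (adjusted p = 0.0047). All 3 fell over this step in siMock, and none passed the test over it in siACL (-0.057, 0.071 and 0.073 for ASF1B, NASP and CHAF1B, adjusted p between 0.0619 and 0.197), where HAT1 rose. The mean score of ASF1B at 0, 0.5, 2 and 5 mM was 1.23, 1.16, 1.36 and 1.30 in siACL, and 1.32, 1.28, 1.49 and 1.04 in siMock. In siMock both ASF1B and HAT1 were highest at 2 mM and lower at 5 mM, whereas in siACL ASF1B was highest at 2 mM, a dose at which HAT1 was low. RBBP7 and RBBP4, the histone-binding partners of HAT1, fell at 5 mM in siACL (-0.14 ± 0.03 and -0.10 ± 0.03) and in siMock (-0.26 ± 0.03 and -0.27 ± 0.03). The siACL call of RBBP4 was lost without untreated or 5 mM replicate 1 (adjusted p up to 0.0587), and with only the arrays compared. CHAF1A fell by 0.68 ± 0.17 in siMock, and ASF1A rose in siACL by 0.27 ± 0.04.

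The effect of lowering ATP citrate lyase on the acetyltransferase transcripts was read at each dose. Without butyrate, EP300 alone of the 9 genes passed the test, against 6.31% of all genes. EP300 scored -0.08, 0.08 and -0.11 in untreated siACL arrays, against -0.44, -0.26 and -0.64 in untreated siMock arrays. The 2 groups did not overlap, and the difference was 0.42 ± 0.11 (95% interval 0.18 to 0.65, adjusted p = 0.0362). The mean was the 48.7 percentile in siACL and the 32.9 percentile in siMock. At 0.5, 2 and 5 mM the difference was 0.21, 0.14 and 0.16, all ± 0.11, and did not pass (adjusted p = 0.24, 0.451 and 0.42). The call in untreated cells was lost without 5 of the 6 arrays, all but siMock replicate 2 (adjusted p up to 0.161), and with only the arrays compared (adjusted p = 0.178).

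**Figure D3:**
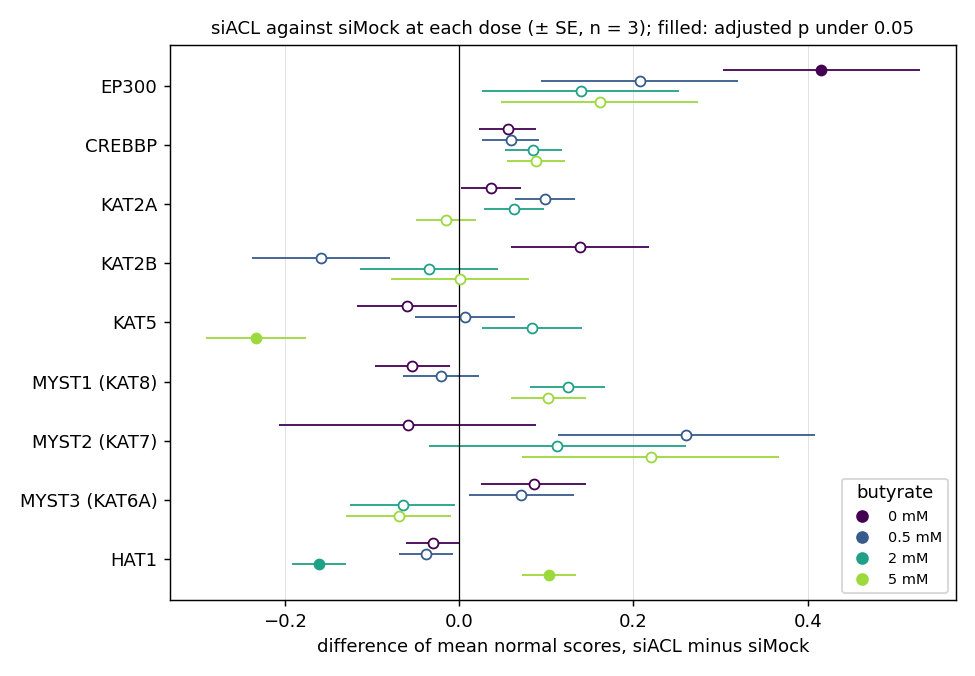
Difference of mean normal scores, siACL minus siMock (horizontal axis, ± SE, n = 3 arrays per group), of each acetyltransferase gene at 0, 0.5, 2 and 5 mM butyrate (colours, top to bottom within a gene). Filled points passed an adjusted p under 0.05: EP300 without butyrate, HAT1 at 2 mM and at 5 mM on opposite sides of 0, and KAT5 at 5 mM.

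With butyrate, HAT1 and KAT5 differed between the arms. At 0.5 mM limma called no member (17.7% of all genes were called, and 1 member, KAT2A, had an unadjusted p under 0.05, with a difference of 0.098). At 2 mM, where 19.1% of all genes were called, HAT1 was lower in siACL by a difference of -0.16 ± 0.03 (adjusted p = 0.00137), with scores of 1.04, 1.04 and 1.04 in siACL and 1.23, 1.12 and 1.26 in siMock. At 5 mM, where 13.7% of all genes were called, HAT1 was higher in siACL by 0.10 ± 0.03 (adjusted p = 0.0348), with scores of 1.19, 1.12 and 1.12 against 1.02, 1.05 and 1.05 in siMock. KAT5 was lower in siACL at 5 mM by a difference of -0.23 ± 0.06 (adjusted p = 0.0109). The HAT1 call at 2 mM held without each array in turn. That at 5 mM was lost without 5 of the 6 arrays, all but siACL replicate 3 (adjusted p up to 0.159), and that of KAT5 without siACL replicate 1 (adjusted p = 0.0661), and none of the 3 calls was made with only the arrays compared.

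For CREBBP the siACL mean lay above the siMock mean at each dose, with differences of 0.056, 0.059, 0.085 and 0.088 at 0, 0.5, 2 and 5 mM, none of which passed (adjusted p between 0.0815 and 0.369). Its arrays did not overlap between arms without butyrate, at 0.5 mM and at 2 mM, and they overlapped at 5 mM. At each of the first 3 doses the arrays of 4 of the 9 members did not overlap, called or not. The share of all genes without overlap was not counted. The change with butyrate in siACL minus that in siMock was called by limma for no member at 0.5, 2 or 5 mM, where 3.1%, 6.19% and 8.85% of all genes were called. At an unadjusted p under 0.05 it was 1 member at 0.5 mM (KAT2B, -0.30), 2 at 2 mM (MYST1, 0.18, and HAT1, -0.13) and 3 at 5 mM (KAT5, -0.17, MYST1, 0.16, and HAT1, 0.13). The share of all genes at this unadjusted threshold was not counted, so these counts have no share to be set against.

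Proteins that hold back histone acetylation were set beside the enzymes. ANP32A and SET belong to the complex that masks histone tails from p300 and its kin, and ANP32B is of the same family as ANP32A. With NOC2L, EID1 and EID2 they made a list of 6 genes, all measured. In siACL at 5 mM, 2 fell and none rose, with a median difference of -0.020, and in siMock 3 fell and 1 rose, with a median of -0.16. Of all genes, 22.6% fell and 22.7% rose in siACL, and 25.2% fell and 25.6% rose in siMock. ANP32B fell by 0.47 ± 0.02 in siACL (adjusted p = 7.86e-13) and by 0.61 ± 0.02 in siMock (adjusted p = 1.41e-14), and SET fell by 0.35 ± 0.03 and 0.44 ± 0.03. ANP32A fell by 0.28 ± 0.05 in siMock. EID1, an inhibitor of p300, rose by 0.23 ± 0.07 in siMock, a call lost without untreated replicate 3 (adjusted p = 0.0503) and with only the arrays compared (adjusted p = 0.0561). Set against siMock at 5 mM, siACL cells had higher SET (0.16 ± 0.03), ANP32B (0.15 ± 0.02) and ANP32A (0.15 ± 0.05, adjusted p = 0.0462, lost without 4 of the 6 arrays, namely replicates 2 and 3 of either arm, with an adjusted p up to 0.201). None of these 3 calls was made with only the arrays compared (adjusted p = 0.0798, 0.0534 and 0.187 for SET, ANP32B and ANP32A).

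The partner genes were then compared between the arms at 5 mM. Of the 7 chaperone genes, 5 were higher in siACL and none lower, with a median difference of 0.11, against 8.8% higher and 4.91% lower among all genes. ASF1B was higher by 0.27 ± 0.03 (adjusted p = 1.42e-05), with a mean of 1.30 in siACL and 1.04 in siMock, and NASP by 0.17 ± 0.03 (adjusted p = 0.000299). RBBP7 (0.11 ± 0.03), CHAF1B (0.11 ± 0.03) and RBBP4 (0.095 ± 0.030) were the others, with adjusted p between 0.0189 and 0.0438. The RBBP7 call was lost without siACL replicate 1 or siMock replicates 2 or 3, that of CHAF1B without siACL replicate 2 or siMock replicate 1, and that of RBBP4 without siACL replicates 2 or 3 or siMock replicates 1 or 3 (adjusted p up to 0.166). With only the arrays compared, 1 of the 5 calls was made, that of ASF1B. Among SAGA and ATAC subunits, TAF5L was higher in siACL (0.68 ± 0.18, adjusted p = 0.0157, up to 0.0731 without siACL replicate 1 or siMock replicates 1 or 3). RUVBL1 of TIP60 (0.11 ± 0.03), MCRS1 of MSL and NSL (0.094 ± 0.024, lost without siMock replicate 1 with an adjusted p of 0.0677) and HIF1A, a p300 partner (0.13 ± 0.04, lost without any 1 array with an adjusted p up to 0.122), were also higher. CREB1, the factor that gave CBP its name, was lower (-0.14 ± 0.03, adjusted p = 0.0017). With only the arrays compared none of these last 5 was called, and CREB1 was not called on percentile ranks. Of the MOZ, MORF and HBO1 genes limma called none, with 1 at an unadjusted p under 0.05.

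**Figure D4:**
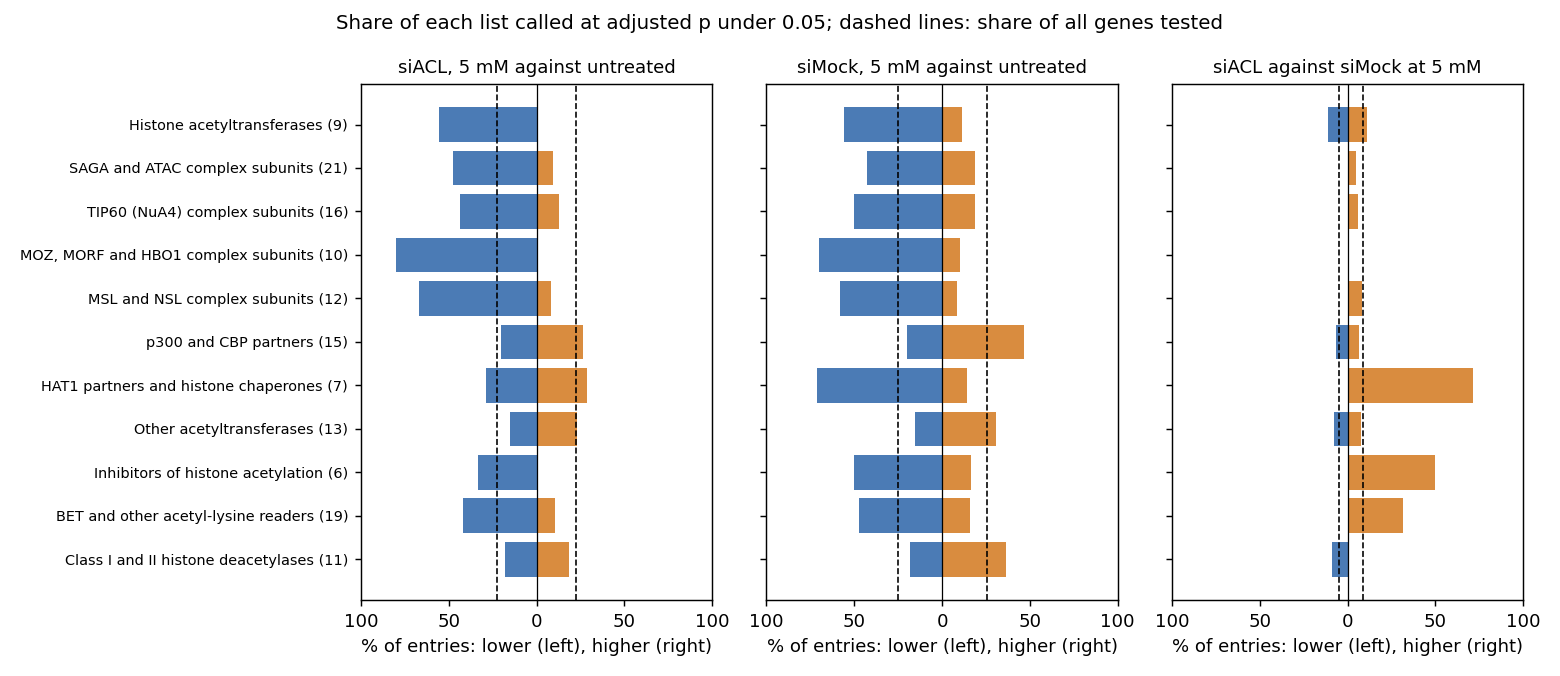
Share of the entries of each list (percent, number of entries in parentheses) that were lower (left of 0) or higher (right of 0) at an adjusted p under 0.05, for siACL at 5 mM against untreated, siMock at 5 mM against untreated, and siACL against siMock at 5 mM. Dashed lines give the shares among all genes tested. At 5 mM the MOZ, MORF and HBO1 list has its bars mostly on the left in both arms, and the HAT1 partner list has 5 of 7 on the right between the arms.

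Likeness of profile was measured as Pearson's r over the 8 group means, which share their arrays and dose steps, and is given as a description. Among members, MYST1 and CREBBP were most alike (r = 0.936), while KAT2B ran against MYST1 (r = -0.794), CREBBP (r = -0.740) and KAT2A (r = -0.617). EP300 and CREBBP had r = 0.115, and HAT1 lay between r = -0.412 (KAT5) and r = 0.324 (MYST3) with the other members. Each member was also compared with genes that had a named symbol and a span of group means at least 0.5 times its own, with no upper limit. These were 8653 genes for MYST1 and up to 12218 for KAT2A, and the 2 with the highest r are named. CREBBP was most like WTAP (r = 0.997) and RSBN1L (r = 0.993), and MYST1 most like NR2F6 (r = 0.997) and MIF (r = 0.994). KAT2A was most like ANAPC7 (r = 0.995) and FAM156A (r = 0.993). HAT1 was most like DSN1 (r = 0.965), a kinetochore gene, and CP110 (now CCP110, r = 0.928), a centriole gene. KAT5 was most like TBN (now TAF8, r = 0.955) and WDR22 (now DCAF5, r = 0.951), KAT2B like CDS1 (r = 0.975) and ACBD4 (r = 0.974), and EP300 like PSTK (r = 0.937) and PLEKHA3 (r = 0.931). MYST2 was most like LARS2 (r = 0.976) and DNA2 (r = 0.958), and MYST3 like FCN1 (r = 0.951) and HIST3H2A (now H2AC25, r = 0.934).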

How the data were processed

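Transcripts of 24 Illumina arrays were read from the authors' deposited value table, whose scale is not described in the sources used here. The deposited score values are normal scores: on each array they follow the normal quantiles of the ranks, to within 0.0074 apart from 19 values at either end. A deposited table of scanner values holds 48 columns that no label ties to a sample. These were not used, so signal over background is unknown, and only its gene annotation was taken (20729 of 20747 entries found, 18 kept under their own name). The 18172 entries with a gene symbol were tested and 2575 without one left out.

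A linear model in limma 3.58.1 (R 4.3.3) held a mean for each group, used all 24 arrays and gave moderated statistics (16 residual and 1.05 prior degrees of freedom), in 17 comparisons and 2 added after seeing the data. Adjusted p-values are Benjamini-Hochberg within a comparison over all genes, with a threshold of 0.05. Intervals are at 95%. The fits were tested on simulated data. The tests were planned for log2 signals and were applied to the scores as deposited. The 3 arrays per group limit the precision.

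Earlier results of these data were known when the members, the gene lists and the naming rule were chosen. The rule names every member, ACLY, up to 4 of the largest called genes of each list at 5 mM (all of them where 5 or fewer were called), and the 2 genes most like each called member among those with a named symbol and a span of group means at least 0.5 times that of the member. Some genes that the rule takes are not reported here. Symbols are those of the array annotation, matched by accession to RefSeq. Promoters are from RefSeq's GRCh38.p14 table, which held 2 starts for CREBBP, of which the most upstream was used. Alternatives were a fit on only the arrays of a comparison, a fit with array weights, a prior with trend and robust settings, a block for the replicate number, a threshold of 0.01, a minimum difference of 0.25, every entry of the table, the genes whose mean score was above 0, ranks as percentiles, and leaving out each array in turn.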

Additional observations from a re-analysis of the deposited data

Results flagged for a closer look

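Among the members, HAT1 and KAT5 had a dose step that differed between the arms in a test of the difference itself, chosen after the values were seen. For HAT1, the siACL step of 5 against 2 mM minus the siMock step was 0.26 ± 0.04 (adjusted p = 0.0013). HAT1 scored 1.19, 1.12 and 1.12 at 5 mM and 1.04, 1.04 and 1.04 at 2 mM in siACL, and 1.02, 1.05 and 1.05 at 5 mM and 1.23, 1.12 and 1.26 at 2 mM in siMock. For KAT5, the same difference was -0.32 ± 0.08 (adjusted p = 0.0249), with scores of -0.38, -0.15 and -0.22 at 5 mM and -0.09, -0.08 and -0.03 at 2 mM in siACL, and of -0.11, 0.02 and 0.04 at 5 mM and -0.28, -0.12 and -0.05 at 2 mM in siMock. The cause was not tested for either gene.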

How the results depend on the processing

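Counts of called members, with the reported count in parentheses, moved by over 1.5 times as follows. With only the arrays compared they were, in siACL, 0 at 0.5 mM (2), 2 at 2 mM (4) and 1 for the step of 5 against 2 mM (4); in siMock, 0 at 0.5 mM (3), 3 at 5 mM (6), and 0 for the steps of 2 against 0.5 mM (2) and of 5 against 2 mM (3). They were 0 for siACL against siMock in untreated cells (1), at 2 mM (1) and at 5 mM (2), and 1 for the added difference of the step of 5 against 2 mM (2). At a threshold of 0.01 they were 0 at 0.5 mM in both arms, 2 at 2 mM in siACL, 0 and 1 for the steps of 5 against 2 mM in siACL and siMock, 0 for siACL against siMock in untreated cells and at 5 mM, and 1 for the added step difference. With a minimum difference of 0.25 they were 0 at 0.5 mM in both arms, 0 at 2 mM and 1 at 5 mM in siACL, 1 at 2 mM in siMock, 0 for the 3 steps with calls, and 0 for siACL against siMock at 2 and 5 mM. The fit on genes of mean score above 0 held neither EP300 nor KAT5, so their calls could not be made in it. In that fit, siACL against siMock gave 0 in untreated cells, 1 at 0.5 mM (0) and 3 at 2 mM. The differences between arms gave 2 at 2 mM (0) and 1 at 5 mM (0) there, and the added step difference 1. A trend and robust prior gave 1 at 0.5 mM and 2 at 2 mM for siACL against siMock, 1 and 1 for the differences between arms at 2 and 5 mM, and 1 for the added step difference. Array weights gave 1 for the siMock step of 5 against 2 mM and 1 for siACL against siMock at 0.5 mM, and percentile ranks gave 2 at 2 mM there. Leaving out 1 array gave, in siACL, 0 to 1, 2 to 4 and 4 to 5 calls at 0.5, 2 and 5 mM, in siMock 1 to 4, 3 to 5 and 4 to 6, for siACL against siMock 0 to 1, 0 to 1, 1 to 2 and 0 to 2 at 0, 0.5, 2 and 5 mM, and for the differences between arms 0 to 0, 0 to 1 and 0 to 1. The steps gave 0 to 0 and 2 to 3 in siACL and 2 to 3 and 1 to 3 in siMock, and the added step differences 0 to 1 and 1 to 2.

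No called member changed direction under any of these alternatives, and of 108 calls of list genes named, 80 held without each array and 74 with only the arrays compared. Same-numbered arrays of different groups did not deviate together (r -0.040 to 0.030), so the replicate numbers were not taken as pairs. With the replicate number as a block, 5 members were called at 5 mM in siMock (6), 4 at 5 mM in siACL (5) and 4 for the siMock step of 5 against 2 mM (3), and the other counts of called members were as reported. Over all genes, a fit on only the arrays compared called 264 at 0.5 mM in siACL (1315 reported; 2066 with array weights) and 1519 in siMock (4022). For the steps it called 650 (2499) and 3327 (5183) in siACL and 1409 (3924) and 2692 (5315) in siMock, and for siACL against siMock 27 (1147), 1548 (3213), 765 (3479) and 413 (2493) at 0, 0.5, 2 and 5 mM. For the differences between arms it called 235 (564; 876 among genes of mean score above 0), 503 (1124) and 1024 (1608), and for the added step differences 346 (805) and 520 (1182). Signal over background is unknown, so low scores have no measured floor.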

Other observations

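Other acetyltransferases, readers of acetylated lysine and deacetylases were listed beside the members. At 5 mM, 22.7% of all genes rose and 22.6% fell in siACL, and 25.6% rose and 25.2% fell in siMock. Of 16 other acetyltransferases, 13 were measured: 3 rose and 2 fell in siACL at 5 mM, and 4 rose and 2 fell in siMock, with median differences of -0.021 and -0.016, and the siACL counts were near or below the shares of all genes. ESCO2, which acetylates cohesin in S phase, fell by 1.57 ± 0.31 in siMock (adjusted p = 0.000345). At 5 mM it was higher in siACL than in siMock by 1.16 ± 0.31 (adjusted p = 0.0192), with means of -0.48 and -1.64, but its arrays overlapped between the arms. This call was lost without siACL replicates 1 or 3 or siMock replicate 2 (adjusted p up to 0.102). ESCO1, its paralogue, fell by 0.26 ± 0.04 in siACL, and at 5 mM its siACL mean lay below the siMock mean (-0.15 ± 0.04, adjusted p = 0.0197, up to 0.0801 without replicates 2 or 3 of either arm). CLOCK, the circadian factor, rose by 0.70 ± 0.19 in siACL and by 0.77 ± 0.19 in siMock, where the difference was 0.42 without 5 mM replicate 1. ELP3, of the Elongator complex, rose by 0.10 ± 0.03 and 0.12 ± 0.03. With only the arrays compared, the siMock calls of CLOCK and ELP3 (adjusted p = 0.115 and 0.0561) and the calls of ESCO1 and ESCO2 between arms (0.0908 and 0.227) were not made. NAT10, an RNA acetyltransferase, fell by 0.38 ± 0.03 in siACL and by 0.30 ± 0.03 in siMock, and SAT1, which acetylates polyamines, rose by 0.21 ± 0.03 in siACL.

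Of 21 listed readers, 19 were measured: 8 fell and 2 rose in siACL at 5 mM, and 9 fell and 3 rose in siMock, with median differences of -0.10 and -0.16, against 22.6% lower and 22.7% higher among all genes in siACL and 25.2% and 25.6% in siMock. PBRM1 of the PBAF complex fell by 0.25 ± 0.05 in siACL and by 0.38 ± 0.05 in siMock, and SMARCA2, a SWI/SNF ATPase, rose by 0.32 ± 0.04 and 0.39 ± 0.04. BAZ1A (-0.32 ± 0.03) and BAZ2B (-0.27 ± 0.06) fell in siACL, and ATAD2 (-0.34 ± 0.03) fell in siMock. In siACL against siMock at 5 mM, 6 readers were higher and none lower, against 8.8% higher and 4.91% lower among all genes. These readers included ATAD2 (0.24 ± 0.03, adjusted p = 0.00015), PBRM1 (0.20 ± 0.05) and SMARCA4 (0.12 ± 0.03). The SMARCA4 call was lost without siACL replicate 3 or siMock replicate 1 (adjusted p up to 0.0788, with a difference of 0.077 without the siMock array). With only the arrays compared none of the 6 was called, and 2 to 5 were called without 1 array. MLLT1, a YEATS reader, fell by 0.92 ± 0.32 in siMock and was higher in siACL by 1.10 ± 0.32 (adjusted p = 0.0219 and 0.0273), but its arrays overlapped, and both calls were lost with percentile ranks and without 4 of the 6 arrays: untreated replicates 1 or 3 or 5 mM replicates 1 or 2 in siMock, and replicates 1 or 2 of either arm (adjusted p up to 0.131).

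Of 11 listed class I and II deacetylases, 11 entries were measured, with HDAC7 on 2 of them and HDAC9 not analysed here. In siACL at 5 mM 2 rose and 2 fell, and in siMock 4 rose and 2 fell. The siACL counts were below the shares of all genes, 22.7% higher and 22.6% lower, and in siMock those shares were 25.6% and 25.2%. HDAC3 rose by 0.21 ± 0.04 in siACL and by 0.29 ± 0.04 in siMock, and HDAC1 rose by 0.12 ± 0.02 in siACL. HDAC7 fell by 0.60 ± 0.19 in siACL on 1 entry and by 0.60 ± 0.19 on the other, and by 0.53 ± 0.19 in siMock on 1 of them. The siACL calls were lost without untreated replicate 1 or 5 mM replicate 2 on 1 entry and without replicate 3 of either group on the other, and the siMock call without untreated replicates 2 or 3 or 5 mM replicate 2 (adjusted p up to 0.113). HDAC8 fell by 0.34 ± 0.09 in siMock, and HDAC10, with a mean of -0.76 at 5 mM against -2.80 in untreated siMock, rose there by 2.04 ± 0.46. At 5 mM the siACL mean of HDAC6 lay below the siMock mean (-0.17 ± 0.04, adjusted p = 0.0153), a call lost without replicate 2 of either arm (adjusted p up to 0.0689). This call and the siMock call of HDAC8 were not made with only the arrays compared (adjusted p = 0.114 and 0.0561).

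The added comparison of the step of 5 against 2 mM also called genes beside the members. The siACL step exceeded the siMock step for ATAD2 (0.40 ± 0.05, adjusted p = 8.23e-05) and ANP32A (0.27 ± 0.07, adjusted p = 0.0269). It was below the siMock step for the NSL genes C12ORF41 (-0.21 ± 0.04), KIAA1267 (-0.20 ± 0.03) and OGT (-0.15 ± 0.04), for ESCO1 (-0.23 ± 0.06), and for ZZZ3 (-0.19 ± 0.05) and TADA1L (-0.13 ± 0.03) of ATAC and SAGA, all named after their values were seen. The calls of ANP32A, ESCO1, ZZZ3 and TADA1L were lost without 6, 5, 4 and 5 of the 12 arrays.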
